A study of Mus musculus with 40 samples.

Results

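RNA of total colonic tissue was compared between mice that had received Tritrichomonas musculis (T.mu) 14 days earlier and control mice of the same day that had received no inoculum. T.mu is a flagellated protozoan that lives in the gut of mice. The 6 libraries labelled as total tissue of day 14 were used, 3 per group, of the 40 libraries of the series. The other libraries hold total tissue of days 3 and 48 and colonic epithelial cells of all 3 days, and serve here only to show where day 14 in total tissue differed. The T.mu group received 2000000 organisms per mouse, sorted by flow cytometry, and the control group none. Each group has 1 library from each of the litters numbered 1, 2 and 3, and replicates carry the litter's number. The genotype, strain, sex and age of the mice are not given in the sources used here, and the groups share no other labelled agent. Every row of the count table that is a mouse gene was read, and 11696 genes had enough counts to be tested.

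The colon wall is lined by an epithelium of absorptive, mucus-secreting, hormone-secreting and stem cells over connective tissue, smooth muscle, nerves and immune cells. Interferons are secreted proteins that signal through JAK kinases and STAT transcription factors. Type I and type III interferons act through a complex that holds STAT2 and IRF9 and binds a promoter sequence called the interferon-stimulated response element. Their target genes encode antiviral enzymes, GTPases that attack intracellular microbes, and the machinery that loads peptides onto MHC class I. Colonisation by T.mu is known for activating the inflammasome and interleukin-18 in the colon and for expanding helper T cells that make interferon-gamma and interleukin-17.

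The 3′ end libraries were shallow and uneven in depth. Controls held 351625, 220733 and 1705296 counts in replicates 1, 2 and 3, and the T.mu libraries 3486622, 2129747 and 475993. The single table entry that is not a mouse gene took 512, 72.5 and 9.38 CPM (counts scaled to a common library total) in the controls and 4053, 17140 and 20190 CPM in the T.mu libraries, so the groups did not overlap (two-sided exact permutation test, p = 0.1, the smallest that 3 against 3 libraries allow). Mitochondrially encoded genes took 13.8% to 15.8% of the counts in controls and 8.74% to 11.9% with T.mu. This share does not overlap between the groups, and its part in the results below was not tested. Epithelial and muscle tissue was present in every library, with Epcam, an epithelial adhesion protein, between 2635 and 3074 CPM and the summed smooth muscle markers between 6936 and 8989 CPM. T cell markers summed to at most 11.6 CPM in any library.

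Which genes differed at day 14? With T.mu, 96 genes were higher and 17 lower at an adjusted p below 0.05 (edgeR's quasi-likelihood test with Benjamini-Hochberg adjustment), which is 0.966% of the 11696 genes tested (0.821% higher and 0.145% lower). The higher genes were led by the interferon response, with 36 of the 96 on the 2 interferon lists. MHC class I genes and 2 absorptive colonocyte markers were also among them. The lower genes shared no list, and only 1 of the 17 was a member of any. Over all genes the median log2 fold change (T.mu minus control) was 0.06. The 3 T.mu libraries lay above all 3 controls in 93 of the 96 higher genes, and below them in 13 of the 17 lower genes. Over all genes tested, 8.77% lay wholly above and 4.67% wholly below. The called genes were picked by a test on these same libraries, so their separation is no further support for the calls.

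The number of calls depended on single libraries. It was 56 without control replicate 1, 74 without control replicate 2, 196 without control replicate 3 and 66 without T.mu replicate 2, and 41 of the 113 genes passed with each library left out in turn. With another scaling, DESeq2's size factors in edgeR, 87 genes were higher and 37 lower. Without the libraries under 400000 counts, 27 genes were called. That setting removed control replicates 1 and 2 and also T.mu replicates 1 and 4 of day 48, and the 1 control left was assumed to vary like the other groups. In bulk tissue, fewer cells of a type and less RNA per cell cannot be told apart.

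**Figure D1:**
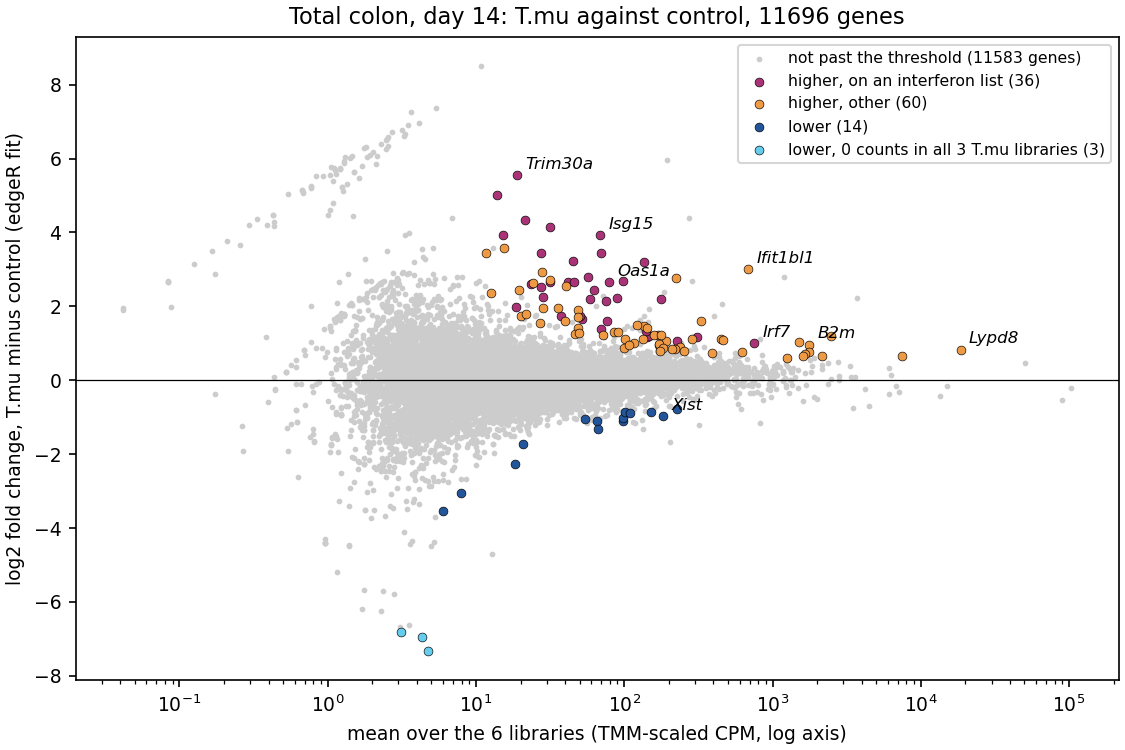
Log2 fold change (T.mu minus control, edgeR fit) against the mean level over the 6 libraries (TMM-scaled CPM, log axis), 1 point per gene, for total colon at day 14. The coloured points are the 96 higher and 17 lower genes, and the 36 higher genes of the interferon lists lie mostly at low and middle levels, while Lypd8 is the most abundant gene that rose.

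The promoters of several of these genes show the response element in plain letters. RefSeq promoter windows (GRCm38.p6, 250 bases before to 50 after each start) were searched on both strands for the core of the interferon-stimulated response element, taken as GAAA, any 2 bases and GAAA again. It was present in 3.99% of the 27025 genes of the RefSeq table and in 3.84% of the tested genes with a window. Among the higher genes it was present in 21 of the 78 with a window (26.9%), and among the lower genes in 0 of 13. The Y box of class II promoters (ATTGG or CCAAT) was in 41.1% of all genes and 44.9% of the higher genes. A match is a description of the sequence and not a measured binding site. The 150 bases before the start of 5 of the higher genes are given here, with the matching letters in capitals, because they hold this element in different numbers and at different distances.
Isg15: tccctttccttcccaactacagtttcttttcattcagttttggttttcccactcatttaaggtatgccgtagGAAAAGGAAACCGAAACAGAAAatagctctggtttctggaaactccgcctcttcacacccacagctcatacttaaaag
Oas1a: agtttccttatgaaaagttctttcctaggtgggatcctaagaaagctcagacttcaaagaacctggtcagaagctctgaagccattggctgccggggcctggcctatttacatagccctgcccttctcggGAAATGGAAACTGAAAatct
Igtp: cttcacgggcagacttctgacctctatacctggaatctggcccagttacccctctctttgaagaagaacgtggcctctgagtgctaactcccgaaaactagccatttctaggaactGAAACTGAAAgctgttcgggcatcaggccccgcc
Irgm2: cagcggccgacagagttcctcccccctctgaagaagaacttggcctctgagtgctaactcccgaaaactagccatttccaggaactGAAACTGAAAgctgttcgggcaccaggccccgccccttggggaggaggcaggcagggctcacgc
B2m: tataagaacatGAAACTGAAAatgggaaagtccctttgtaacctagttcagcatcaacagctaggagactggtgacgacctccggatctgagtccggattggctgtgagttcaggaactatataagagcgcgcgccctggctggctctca
These windows are chr4:156200819-156200968 on the minus strand for Isg15, chr5:120907526-120907675 on the minus strand for Oas1a, chr11:58199406-58199555 and chr11:58214827-58214976 on the plus strand for Igtp and Irgm2, and chr2:122147537-122147686 on the plus strand for B2m. Isg15 holds 3 overlapping matches, and Oas1a holds 2 that overlap. The same 10 letters, GAAACTGAAA, occur in Oas1a, Igtp, Irgm2 and B2m, beginning 14, 34, 64 and 139 bases before the start. The windows of Igtp and Irgm2, which lie 15.4 kb apart on chromosome 11, share a run of 38 identical bases outside the element.

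Of the 38 genes of the type I interferon list, 37 could be tested and 28 were higher with T.mu, against 0.821% of all genes, and none was lower. This and the other gene lists were chosen with earlier results of these data known. Their shares beside that of all genes are therefore a description and no independent support. The median of the 37 log2 fold changes was 2.21. In 34 of the 37 all T.mu libraries lay above all controls. Ifi44l was the member left out, with 0 counts in all 6 libraries. Oas1a, Zbp1, Trim30a, Stat2, Irf9 and Usp18 were taken by the rule for named genes, and the other members described were chosen after their values were seen. The number of members that rose was 21 to 27 when 1 library was left out, 24 with litter as a block and 11 without the libraries under 400000 counts.

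Oas1a, which makes the 2-5A messenger that activates RNase L against viral RNA, was at 11.6, 25.2 and 25.2 CPM (scaled by TMM) in control replicates 1, 2 and 3 and at 149, 153 and 112 CPM in the T.mu libraries. The lowest T.mu library lay far above the highest control. Its log2 fold change was 2.67 ± 0.30 (SE; adjusted p = 2.91e-08), and it passed with each library left out in turn. Oas2, Oas3, Oas1g, Oasl1 and Oasl2 also rose, by 5.01, 2.21, 2.67, 1.19 and 3.21 on the log2 scale. Without control replicate 3 the other controls held 0 counts of Oas2 and Oas1g, whose fitted values were then 8.99 and 10.08, and without control replicate 1 Oasl2 had an adjusted p of 0.0585. Oas1g and Oas1a are near-identical copies, so their counts may be split between them. Oas2 had 2 counts over the 3 controls and 180 over the T.mu libraries, a ratio of CPM of 34.2 (95% counting interval 9.32 to 284).

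Isg15, a ubiquitin-like protein attached to other proteins during viral infection, was at 0, 0 and 13.2 CPM in controls and at 156, 135 and 107 CPM with T.mu. The groups were far apart, but the shallow controls held no count of it. Its log2 fold change was 3.92 ± 0.76 (adjusted p = 0.0199). The adjusted p was 0.0702 with litter as a block, and 0.0907 and 0.0738 when control replicates 1 and 2 were left out in turn, and 0.056 and 0.0694 when T.mu replicates 1 and 2 were. Usp18, the protease that removes ISG15 and restrains interferon receptor signalling, was at 0, 0 and 4.93 CPM in controls and at 87.8, 49.2 and 46.9 CPM with T.mu. It rose by 4.16 ± 0.61 on the log2 scale (adjusted p = 3.78e-05) and passed with each library left out. Control replicate 3 held the only 9 control counts of Usp18, and without it the fitted values of Usp18 and Isg15 were 10.19 and 11.27.

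Stat2, Irf9 and Irf7, transcription factors of the pathway, were higher too. Stat2, a subunit of the interferon-activated complex, was at 5.79, 8.39 and 14.2 CPM in controls and at 69.2, 88.9 and 62.5 CPM with T.mu (log2 fold change 2.67 ± 0.39, adjusted p = 7.92e-06). Irf9, which binds DNA in the STAT complex, was at 29.0, 8.39 and 21.9 CPM against 126, 68.5 and 98.2 CPM (2.21 ± 0.33, adjusted p = 1.18e-05). Irf7, which amplifies type I interferon production, was the most abundant of them, at 582, 336 and 577 CPM against 1130, 1072 and 817 CPM, and rose by 1.00 ± 0.18 (adjusted p = 0.00036). In all 3 genes the lowest T.mu library lay above the highest control.

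Members of the list that sense foreign nucleic acid differed in their result. Zbp1, which binds left-handed nucleic acid and can start necroptosis, was at 11.6, 0 and 19.7 CPM in controls and at 104, 119 and 84.8 CPM with T.mu. It rose by 2.80 ± 0.38 (adjusted p = 2.72e-06). Ifih1, the RNA sensor MDA5, rose by 1.17 (adjusted p = 0.00118), and Dhx58, its regulator LGP2, by 2.62 (adjusted p = 0.002). Ddx58, the sensor RIG-I, was at 23.2, 16.8 and 33.4 CPM against 44.1, 42.4 and 40.2 CPM and did not pass (adjusted p = 0.631). Trim30a had 2 counts over the controls and 308 over the T.mu libraries, a ratio of CPM of 58.4 (95% counting interval 16 to 485). Its neighbour Trim30d, a close copy, was also higher, with an adjusted p of 0.174 without control replicate 3. The myxovirus GTPases Mx1 and Mx2 had 21 and 54 counts over the T.mu libraries and did not pass.

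Of the 32 genes of the interferon-gamma list, 23 could be tested and 8 were higher, against 0.821% of all genes, none was lower, and the median was 1.73 on the log2 scale. The number was 8 or 9 when 1 library was left out and 5 without the libraries under 400000 counts. Ifng itself had 0 counts in controls and 2 over the T.mu libraries, and was not tested. The immunity-related GTPases, a family of defence against intracellular parasites, made up 5 of the 8 higher members. Igtp was at 11.6, 16.8 and 5.48 CPM in controls and at 89.0, 57.5 and 89.3 CPM with T.mu (log2 fold change 3.22 ± 0.48, adjusted p = 1.26e-05). Irgm2 was at 23.2, 0 and 12.1 CPM against 90.8, 64.3 and 84.8 CPM (2.66 ± 0.41, adjusted p = 3.5e-05). Irgm1, Ifi47 and Iigp1 rose by 2.15, 1.60 and 3.92 on the log2 scale, and Iigp1 had an adjusted p of 0.113 without control replicate 3. In these 5 genes the groups did not overlap. The annotated spans of Igtp and Irgm2 overlap on one strand, so reads in any exon stretch that both share could not be assigned to one of them. Whether their exons overlap was not checked.

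Irf1, the transcription factor that carries much of the interferon-gamma response, was at 145, 168 and 130 CPM in controls and at 217, 298 and 408 CPM with T.mu. It rose by 1.07 ± 0.22 (adjusted p = 0.00292), and had an adjusted p of 0.0654 without T.mu replicate 3, its highest library. Irf1, Tap1, Psmb9, Iigp1 and the guanylate-binding proteins were chosen after their values were seen. The guanylate-binding proteins Gbp2, Gbp3 and Gbp7 had log2 fold changes of 1.74, 1.49 and 2.08 and did not pass (adjusted p = 0.169, 0.345 and 0.0533). The chemokines Cxcl9 and Cxcl10, which attract activated T cells, had 0 counts in the controls and 24 and 48 counts over the T.mu libraries. Both had too few counts to be tested.

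Genes of peptide presentation on MHC class I were among those called, although no list was made for them. Tap1, which pumps peptides into the endoplasmic reticulum, was at 11.6, 16.8 and 24.1 CPM in controls and at 106, 117 and 103 CPM with T.mu, with the groups far apart. It rose by 2.44 ± 0.45 (adjusted p = 0.00234), and Psmb9, an immunoproteasome subunit, by 1.73 ± 0.36 (adjusted p = 0.0033). The other immunoproteasome subunits Psmb8 and Psmb10 had log2 fold changes of 1.40 and 0.82 and did not pass (adjusted p = 0.0951 and 0.201). B2m, the light chain shared by all class I molecules, was at 1150, 1045 and 1380 CPM against 2184, 2547 and 2276 CPM. This is a rise of 0.97 ± 0.16 on the log2 scale (adjusted p = 5.79e-05). The heavy chain H2-D1 rose by 1.03 ± 0.16 (adjusted p = 2.14e-05), and H2-T23, H2-Q1 and H2-K1, chosen after their values were seen, by 1.11, 1.00 and 0.65. H2-K1 did not pass without control replicates 1 or 2 or T.mu replicates 1 or 2 (adjusted p = 0.0559, 0.289, 0.117 and 0.151), nor H2-Q1 without control replicates 1 or 2 or T.mu replicates 2 or 3 (adjusted p = 0.0528, 0.211, 0.201 and 0.0939). Class I genes are similar in sequence, so counts may be split among them.

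**Figure D2:**
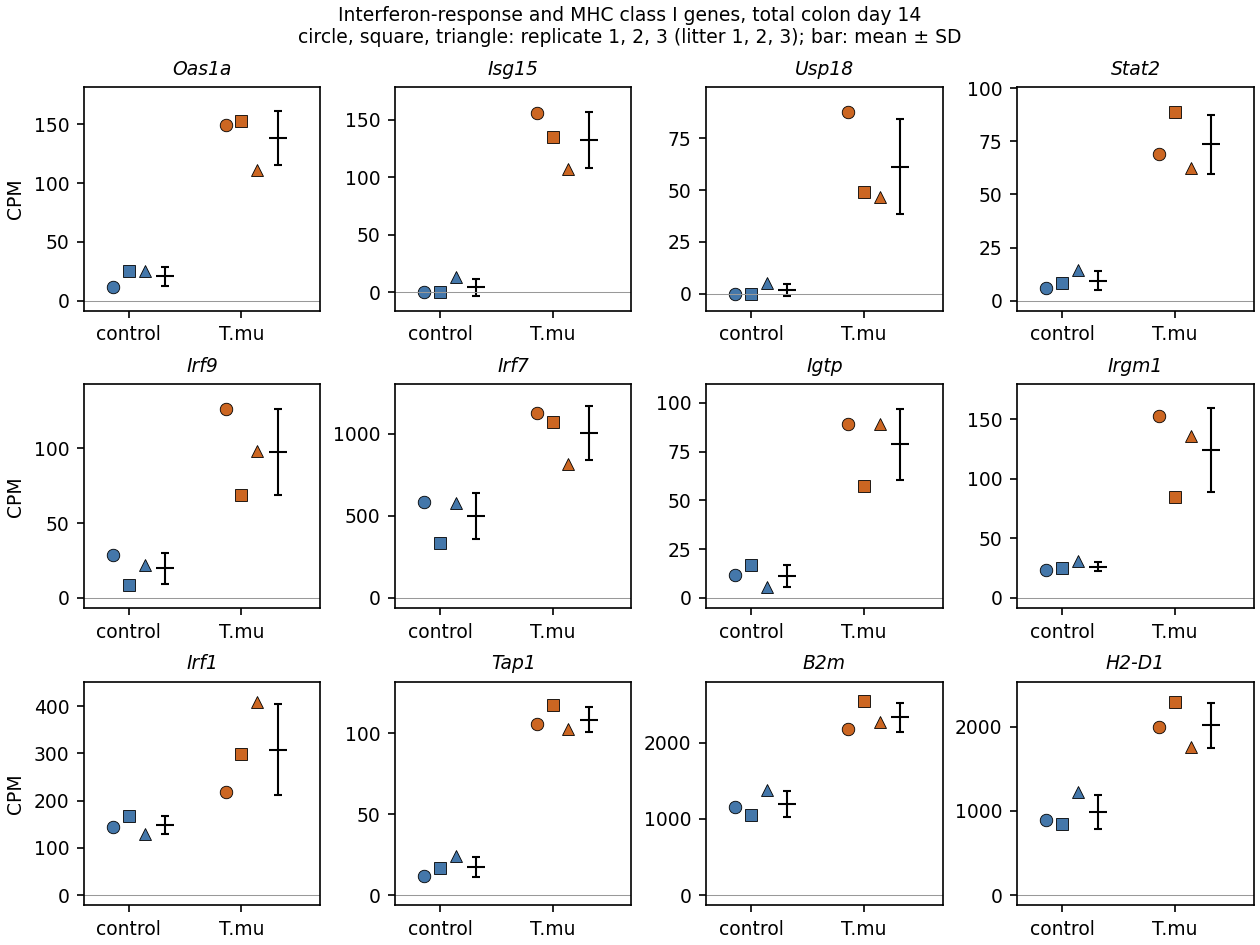
TMM-scaled CPM of 12 interferon-response and MHC class I genes in each of the 6 libraries of total colon at day 14, with the mean and SD of each group (n = 3). In each panel all 3 T.mu libraries lie above all 3 controls.

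Of 12 listed MHC class II genes, 7 could be tested, none was called, and the median was 0.78 on the log2 scale. Cd74, the invariant chain of class II, was at 60.8, 16.8 and 72.3 CPM in controls and at 219, 76.4 and 152 CPM with T.mu, and H2-Ab1 at 40.6, 42.0 and 114 CPM against 337, 145 and 183 CPM. In both genes all T.mu libraries lay above all controls, as in 8.77% of all genes tested. The spread within the groups was wide (log2 fold change 1.40 and 1.57, adjusted p = 0.773 and 0.713). With only the 6 libraries in the fit, H2-Ab1 alone of the list passed (adjusted p = 0.0402).

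Inflammasome and interleukin-1 family genes were tested for 19 of 26 members, and 1 rose, against 0.821% of all genes. Casp4, known as caspase-11, senses bacterial lipopolysaccharide in the cytosol and cuts gasdermin D. It was at 43.4, 33.6 and 46.6 CPM in controls and at 77.5, 115 and 116 CPM with T.mu (log2 fold change 1.23 ± 0.28, adjusted p = 0.011). Its adjusted p was 0.0528, 0.0619 and 0.111 without control replicate 1, control replicate 2 and T.mu replicate 2. Il18, the cytokine released by the inflammasome, was at 57.9, 50.4 and 34.5 CPM in controls and at 18.6, 43.4 and 69.2 CPM with T.mu. These groups overlapped fully, with a log2 fold change of -0.20 (adjusted p = 0.959). Casp1, which matures interleukin-18, was at 130, 159 and 224 CPM against 291, 229 and 230 CPM (0.51, adjusted p = 0.398). Pycard and Gsdmd had log2 fold changes of 0.23 and 0.65 (adjusted p = 0.787 and 0.195). In Casp1, Pycard and Gsdmd all T.mu libraries lay above all controls. Of the 19 tested members, 7 lay wholly above and 2 wholly below, against 8.77% and 4.67% of all genes. The gasdermin C genes Gsdmc2 and Gsdmc4, chosen after their values were seen, lay below all controls with T.mu, at log2 fold changes of -1.12 and -1.22. They did not pass (adjusted p = 0.345 and 0.219), but both passed without a filter on low counts, with DESeq2 and with only the 6 libraries in the fit. Nlrp3 and Il1b had at most 3 counts in a group and were not tested.

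Antimicrobial and IL-17/IL-22 response genes split the T.mu libraries. Of 25 listed genes, 18 could be tested and 2 rose, Lypd8 and Saa3, against 0.821% of all genes. The median log2 fold change of the 18 was 1.76. Lypd8, an abundant colonocyte protein that keeps flagellated bacteria off the epithelium, was at 13170, 11950 and 14910 CPM in controls and at 19430, 27790 and 24050 CPM with T.mu. It rose by 0.83 ± 0.13 on the log2 scale (adjusted p = 5.79e-05) and passed with each library left out. Saa3, a serum amyloid A protein induced in epithelium by microbes, was at 8.69, 8.39 and 4.93 CPM against 15.3, 80.6 and 49.1 CPM. It rose by 2.93 ± 0.57 (adjusted p = 0.0015), and its adjusted p was 0.0742 without control replicate 3 and 0.142 without T.mu replicate 2.

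Other genes of this list were low in T.mu replicate 1 and high in T.mu replicates 2 and 3, and did not pass. Reg3g, a C-type lectin that kills Gram-positive bacteria, was at 46.4, 268 and 540 CPM in controls and at 95.6, 4289 and 1915 CPM with T.mu (log2 fold change 2.81, adjusted p = 0.713). Nos2, which makes nitric oxide, had 0 counts in controls and was at 2.26, 31.9 and 31.2 CPM. Retnlb, a goblet cell protein active against bacteria and worms, was at 11.6, 16.8 and 27.9 CPM against 16.3, 97.8 and 98.2 CPM (1.58, adjusted p = 0.519). The same order was seen in Duox2, which generates hydrogen peroxide at the epithelial surface, at 88.0, 325 and 295 CPM, and in Tifa, Socs3, Saa1 and Reg3b. Several of these genes were picked for description after their values were seen. T.mu replicate 1 was the lowest of the 3 in 15 of the 18 tested members (83.3%), and in 27.3% of all genes tested. The same library had the lowest level of the non-mouse entry among the 3, 4053 CPM against 17140 and 20190 CPM, whose part in this was not tested. Without T.mu replicate 1, 5 of the list's genes passed, Lypd8, Saa3, Tifa, Fut2 and Retnlb, and with DESeq2 on all libraries also 5, Lypd8, Saa3, Tifa, Duox2 and Duoxa2. Among the interferon genes plotted by library, T.mu replicate 1 was the highest of the 3 for Isg15, Usp18, Irf9, Irf7 and Irgm1 and the lowest for Irf1 and B2m. The cytokines Il17a and Il22 and the transcription factor Tbx21 had 0 counts in all 6 libraries. The limit set by 3 counts over a group is 1.25 CPM in the controls and 0.473 CPM with T.mu. It holds for counting error only, with each count taken as a separate event.

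**Figure D3:**
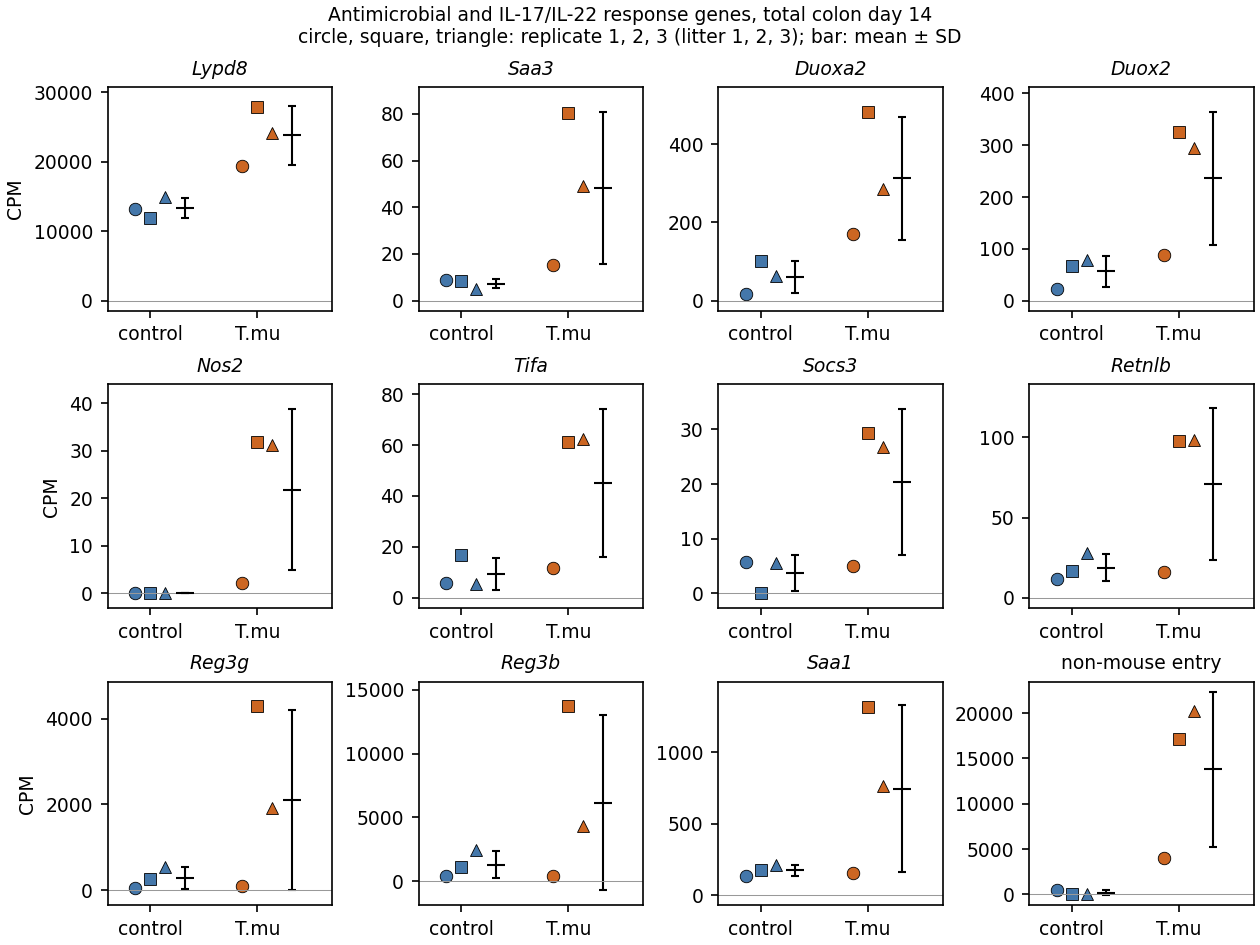
TMM-scaled CPM of 11 antimicrobial and IL-17/IL-22 response genes, and CPM of the non-mouse entry, in each library of total colon at day 14, with the mean and SD of each group (n = 3). T.mu replicate 1 (circle) is the lowest T.mu library in every panel, and for Reg3g, Reg3b, Saa1, Socs3, Retnlb and Tifa it lies within the range of the controls.

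Among absorptive colonocyte markers, 2 rose and 1 fell of 22 tested, against 0.821% higher and 0.145% lower of all genes. Besides Lypd8, Car4, a membrane carbonic anhydrase of surface colonocytes, was at 1078, 1372 and 1458 CPM in controls and at 1987, 2720 and 1892 CPM with T.mu (log2 fold change 0.76 ± 0.16, adjusted p = 0.00321). Its adjusted p was 0.0878 without control replicate 1 and 0.132 without T.mu replicate 2. The phosphate carrier Slc20a1 was at 81.1, 134 and 69.6 CPM against 30.6, 34.0 and 49.1 CPM (-1.32 ± 0.34, adjusted p = 0.0483), and lost the call without any 1 of 4 libraries, control replicates 1 and 2 and T.mu replicates 1 and 2 (adjusted p = 0.175, 0.24, 0.21 and 0.279). Slc39a4, the zinc importer of the gut surface, rose by 1.12 (adjusted p = 0.000178). It was the member called of 24 tested in the metal-binding and antioxidant list. Of 30 genes of cholesterol and lipid synthesis, Cyp51, a sterol demethylase, passed, at 46.4, 67.1 and 95.4 CPM against 102, 173 and 165 CPM (0.96 ± 0.25, adjusted p = 0.0432, and 0.0518 with litter as a block). It did not pass without control replicates 1 or 2 or without T.mu replicates 2 or 3 (adjusted p = 0.376, 0.152, 0.334 and 0.145).

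Markers of other cell types were not called. Of 19 cell type lists, 18 had no member past the threshold, and the absorptive colonocyte list was the other one. Muc2, the main colonic mucin of goblet cells, was at 1451, 2664 and 2938 CPM in controls and at 1489, 1224 and 2252 CPM with T.mu (log2 fold change -0.51, adjusted p = 0.78). Dclk1, a tuft cell kinase, lay below all controls with T.mu (-0.59, adjusted p = 0.697). Igha, the heavy chain of IgA, overlapped between the groups (0.53, adjusted p = 0.474). The T cell list had 2 of 20 members tested, with 2 and 7 counts of Cd3e over the control and T.mu groups, and the neutrophil list had none of 16, with 8 members at 0 in all 6 libraries. The 37 tested genes of stem and proliferating cells had a median of 0.64 (log2), with all T.mu libraries above all controls in 10 (8.77% of all genes were) and no call. The 71 nuclear genes of mitochondrial respiration had a median of 0.26, with 22 wholly above, while the 9 mitochondrially encoded genes had a median of -0.46, with 6 wholly below (4.67% of all genes were), and neither list had a call. Smooth muscle and fibroblast lists had medians of 0.08 and -0.04.

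**Figure D4:**
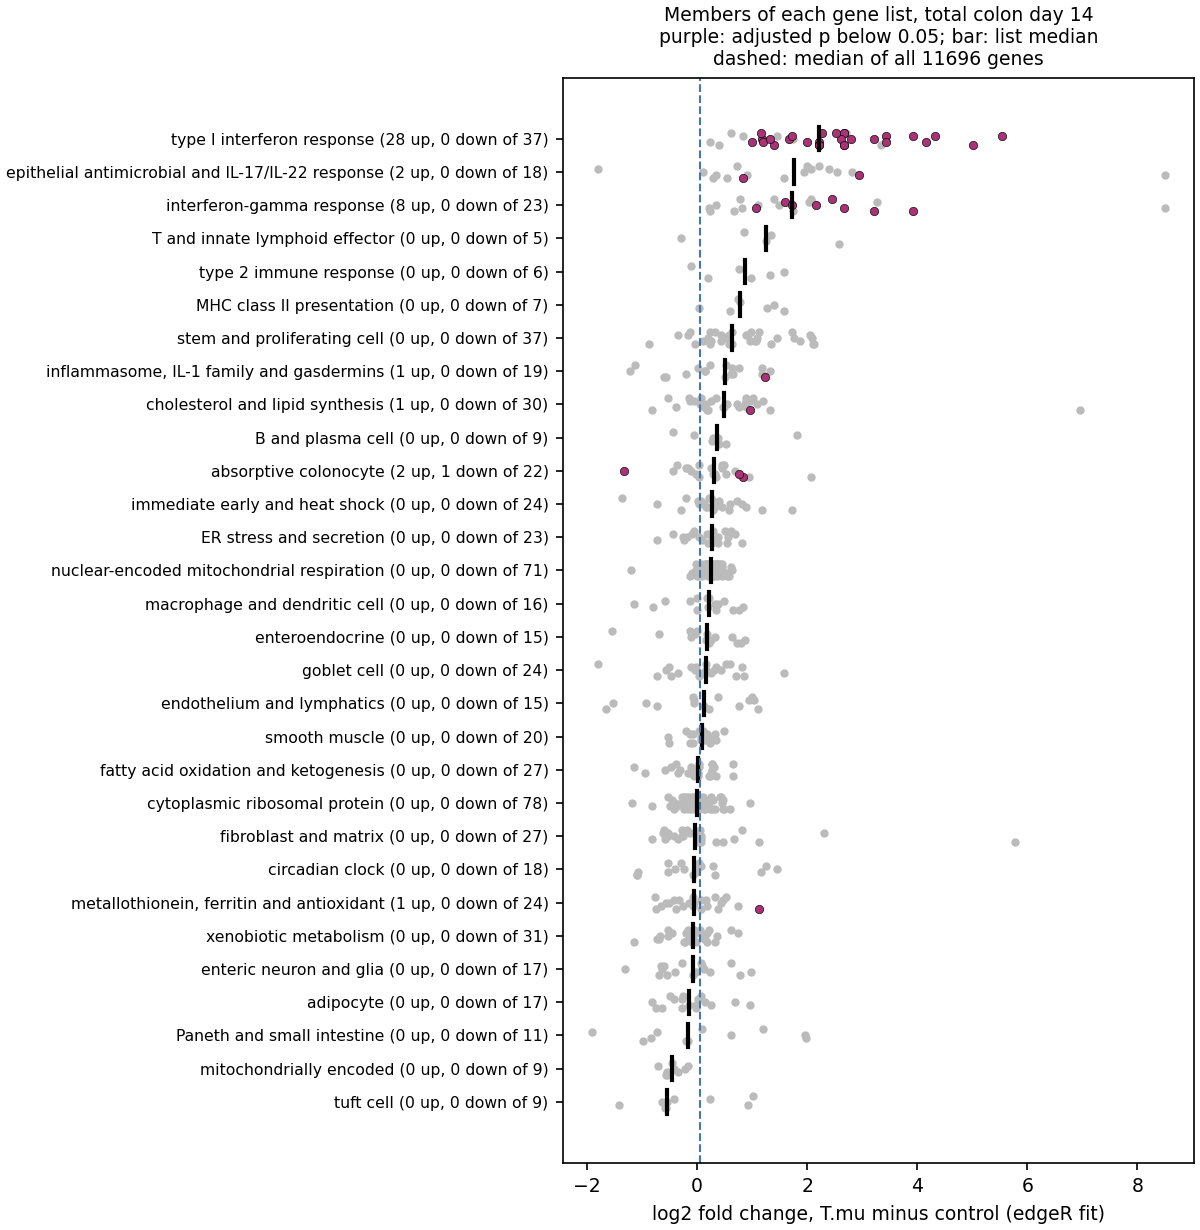
Log2 fold changes (T.mu minus control, edgeR fit) of the tested members of each gene list with at least 5 of them, in total colon at day 14. Purple points are members past the threshold, bars are list medians and the dashed line is the median of all genes, 0.06. The type I interferon list has 28 of 37 members past the threshold, and most cell type lists centre near the dashed line.

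Of the 96 higher genes, 54 were on none of the lists. The lists are not complete, so absence from them does not place a gene outside the interferon response. Of the 47 with a promoter window, 8 held the core of the response element (17.0%, against 3.84% of tested genes). Among the 54 the rule for named genes took Lgals9, Plac8, H2-D1, Cmpk2 and B2m. Lgals9, a galactose-binding lectin, was at 182, 118 and 179 CPM in controls and at 507, 504 and 491 CPM with T.mu. The T.mu libraries were closely alike, and it rose by 1.62 ± 0.20 (adjusted p = 1.84e-07). Plac8, a cysteine-rich protein of epithelium and leukocytes, was at 1640, 1498 and 1410 CPM against 2256, 4527 and 3642 CPM (1.20 ± 0.17, adjusted p = 3.7e-06). Cmpk2, a mitochondrial nucleotide kinase, rose by 2.56 (adjusted p = 5.79e-05). Others were chosen after their values were seen. Nfkbia, which holds NF-κB in the cytoplasm, rose by 1.22 (adjusted p = 0.00278, and 0.0768 without control replicate 1). Zc3h12a, an RNase that degrades cytokine mRNA, rose by 3.58 (adjusted p = 0.00626, and 0.135 without control replicate 3). Cd274, the checkpoint ligand PD-L1, rose by 1.71 (adjusted p = 0.00305, and 0.0608 without control replicate 3). Hk2, the first enzyme of glycolysis, rose by 1.23 ± 0.24 (adjusted p = 0.00176), with 81.1, 126 and 100 CPM in controls and 181, 274 and 259 CPM with T.mu.

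Among the 17 lower genes the median was -1.11 on the log2 scale. The largest fitted falls came from genes of low level. Cyp4f15, a fatty acid hydroxylase, was at 23.2, 0 and 5.48 CPM in controls and had 0 counts in all T.mu libraries, at least 15.8-fold lower when 3 counts over the group are taken for 0 (adjusted p = 0.00305). The adjusted p of Cyp4f15 was 0.0556 without control replicate 1 and 0.0607 without T.mu replicate 1. Itga11 and Gm26772 were also at 0 with T.mu, at least 11.4-fold and 10.5-fold lower. They had adjusted p of 0.0635 and 0.0501 with litter as a block, and both lost the call without control replicate 1, T.mu replicate 1 or T.mu replicate 2, and Gm26772 also without control replicate 2 (adjusted p up to 0.201 and 0.199). The better measured of the lower genes fell by about 1 on the log2 scale. Fryl was at 133, 143 and 117 CPM in controls and at 60.2, 68.5 and 62.5 CPM with T.mu (-1.01 ± 0.24, adjusted p = 0.0116). Plekha1, a phosphoinositide-binding adaptor, was at 182, 96.5 and 129 CPM against 66.7, 74.8 and 40.2 CPM (-1.11 ± 0.24, adjusted p = 0.0043, and 0.122 without control replicate 1). Xist, the RNA that silences one X chromosome in females, was at 339, 189 and 194 CPM against 99.8, 113 and 163 CPM (-0.97 ± 0.23, adjusted p = 0.0141).

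In each of these 3 genes the highest T.mu library lay below the lowest control. Fryl had adjusted p of 0.0654, 0.0615 and 0.0639 without control replicates 1 and 2 and T.mu replicate 1, and Xist of 0.415, 0.111 and 0.124 without control replicate 1 and T.mu replicates 1 and 2. Slc16a1, the monocarboxylate transporter that takes up butyrate and lactate, was at 345, 277 and 240 CPM in controls and at 175, 142 and 183 CPM with T.mu (-0.78 ± 0.20, adjusted p = 0.0398). It passed without control replicate 3 alone among the libraries left out 1 at a time, with adjusted p from 0.0563 to 0.398 otherwise. The remaining named lower genes were Cmtm8, St3gal5, Hook3, March6, 4932438A13Rik, Cmtm4 and Ces1e, with Ablim1 beside them. With litter as a block the adjusted p was 0.0538 for March6, 0.0567 for Cmtm4, 0.0612 for Ces1e and 0.0693 for Ablim1. Of the 6 fits with 1 library left out, March6 passed in 0, Ces1e in 1, and Hook3, 4932438A13Rik, Cmtm4 and Ablim1 in 2 each. Cmtm8 passed in 3 and St3gal5 in 4. One lower gene has no symbol in the reference. The median exon length was 6657 bases in the 16 lower genes with a value, 2914 in the 96 higher genes and 4519 in all genes tested. Malat1, an abundant nuclear RNA, was at 779, 806 and 745 CPM in controls and at 301, 510 and 560 CPM with T.mu and missed the threshold (log2 fold change -0.77, adjusted p = 0.0714).

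How far was the day 14 difference seen on other days and in epithelium? Each day and tissue has its own control libraries. At day 3, 43 of the 96 genes were also higher (44.8% of these and 79.6% of the 54 higher at day 3), at day 48 51 (53.1%, and 43.6% of the 117 there), and in epithelium at day 14 23 (24.0%, and 67.6% of the 34 there). Their median log2 fold change was 1.52 at day 14, and 0.87, 0.98 and 1.00 in those 3 comparisons, but the genes were chosen at day 14, which favours the value there. Of the 17 lower genes, 0, 1 and 0 were lower in the same 3 comparisons, and the 1 was Slc20a1 at day 48.

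The differences between the comparisons were tested as interactions. Between day 14 and day 3, 0 of 11696 genes passed with edgeR (0%; 736 at an unadjusted p below 0.05, and 5 with DESeq2), the smallest adjusted p being 0.242 for Cyp4f15. Without control replicate 3, 16 passed. The difference of Oas1a was larger at day 14 by 1.22 ± 0.38 (adjusted p = 0.588) and that of Irf1 by 1.01 ± 0.30 (adjusted p = 0.508). Between total colon and epithelium at day 14, 0 of 11834 genes passed with edgeR (0%; 844 at an unadjusted p below 0.05, and 42 with DESeq2), the smallest adjusted p being 0.213 for Tm4sf20. Without control replicate 3, 13 passed.

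Between day 14 and day 48, 5 genes passed (0.0427% of 11696), all with a higher difference at day 14. Lgals9 rose by 1.62 at day 14 and had a log2 fold change of 0.41 at day 48 (adjusted p = 0.228), and these differed by 1.20 ± 0.26 (adjusted p = 0.0424). In the other 4 both days lay on opposite sides of 0. Cldn3, a tight junction protein, had log2 fold changes of 0.57 at day 14 and -0.61 at day 48 (difference 1.18 ± 0.22, adjusted p = 0.0211). Uqcr11 and Atp5e, small subunits of the respiratory chain and ATP synthase, differed by 1.39 ± 0.28 and 1.14 ± 0.24 (adjusted p = 0.0281 and 0.0424), and Rbp4, which carries retinol, by 8.92 ± 1.79 (adjusted p = 0.0281) with at most 17.9 CPM in any library at day 14. Its T.mu libraries of day 48 held 0 counts, so its fitted value depends on the prior count and is no bound. The count was 117 and 8 when control replicates 3 and 1 were left out in turn, and 21 and 0 when T.mu replicates 3 and 1 were. It was 8 with litter as a block. No gene of either interferon list passed, the smallest adjusted p being 0.0632 for Ifi27, which was higher at day 14 by 1.64 ± 0.38.

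**Figure D5:**
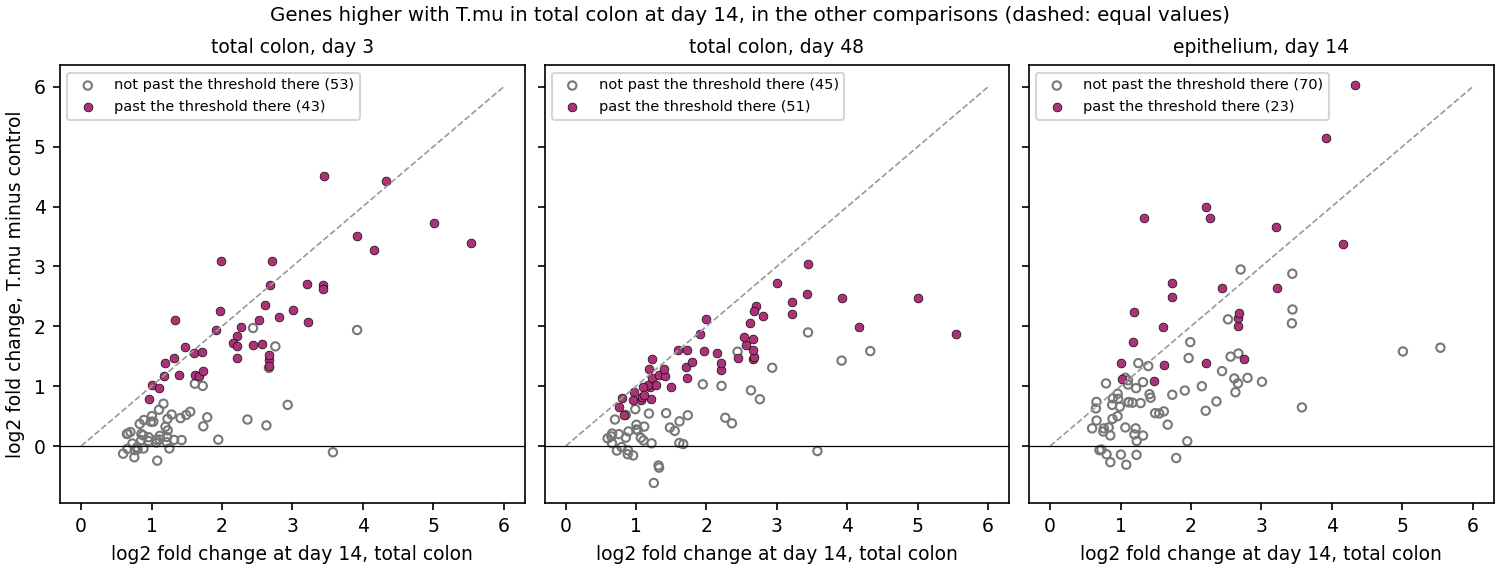
Log2 fold changes (T.mu minus control) of the genes higher in total colon at day 14, on the x axis, against those of the same genes in total colon at day 3, total colon at day 48 and epithelium at day 14, on the y axes, 1 point per gene. Filled points passed the threshold in the other comparison too, 43, 51 and 23 genes, and the dashed line marks equal values.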

How the data were processed

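The authors deposited 1 table of raw counts per gene for 40 libraries, made from 3′ digital gene expression libraries of phenol/chloroform-extracted RNA per the labels' protocols. Per the submitters' processing notes, STAR and Subread were used, with no version or role given, and the build, annotation and settings are not given in the sources used here. Of 45792 mouse gene IDs, 45143 (98.6%) had a symbol. The non-mouse entry, 0.389% of the counts, was kept out of library sizes and tests. Of small values, 71.8% to 85.8% were even numbers in the 6 libraries, and halved counts were an alternative. No table column was left unused.

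Counts of the 20 total-tissue libraries in 6 groups were tested with edgeR 4.0.16 (R 4.3.3) by the quasi-likelihood test, with TMM scaling, a minimum count of 10 and total of 15, and Benjamini-Hochberg adjustment at 0.05. The difference from epithelium was fitted on all 40 libraries. limma 3.58.1 and DESeq2 1.42.0 were alternatives. Counts with known changes were simulated over 11696 genes. Of genes raised 4-fold at day 14, 18 of 20 were recovered at 30 CPM or more and 16 of 30 below. Of those raised 2-fold, 6 of 21 and 1 of 29 were. Of genes lowered 4-fold, 18 of 18 were recovered at 30 CPM or more and 8 of 32 below. Of those lowered 2-fold, 2 of 13 and 1 of 37 were. Of unchanged genes, 3 of 11496 were called.

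The labels' litter numbers pair the libraries, so litter was a block in an alternative. The block gave each litter number a single effect shared by all days and groups of the fit. It was therefore not a fit of the day 14 pairs alone. Deviations of same-litter libraries correlated at 0.0218, 0.0204 and -0.0367 over 2563 genes. Named genes were up to 15 higher and 15 lower with the smallest adjusted p that moved one way in all 3 litter pairs, up to 4 called members of each of 36 lists or 2 with the smallest p, up to 5 per interaction, and 17 immune and epithelial genes set by name; others described were chosen after their values were seen. The members and lists were chosen with earlier results of these data known. Promoters came from RefSeq GRCm38.p6. Counting intervals (95%) and floors (3 counts) cover counting error only and take each count as a separate event. Most small values were even. If counts came in pairs, the intervals would be too narrow, the floors too low and the bounds on falls too large. A result on 1 item is not reported here.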

Additional observations from a re-analysis of the deposited data

Results flagged for a closer look

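For 5 genes the T.mu difference at day 14 differed from that at day 48 in total colon, by the interaction test of edgeR. The log2 differences between the days were 1.2 for Lgals9, 1.18 for Cldn3, 1.14 for Atp5e, 1.39 for Uqcr11 and 8.92 for Rbp4, a gene of few counts whose fitted value depends on the prior count.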

How the results depend on the processing

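Of the 113 genes called at day 14, 92 were also called with litter as a replicate block (97 calls) and 41 with each library left out; none changed direction under any alternative. The count was 185 with DESeq2, 58 with limma voom, 27 without libraries under 400000 counts and 56 to 196 without 1 library. Against day 3 it was 3 without a filter, 5 with DESeq2 and 0 to 16 without 1 library. Against day 48 it was 13 with RLE size factors, 63 without a filter, 85 with DESeq2, 8 with the block, 0 with limma voom, with only the compared libraries and without those under 400000 counts, and 0 to 117 without 1 library. Against epithelium it was 2 without a filter, 42 with DESeq2, 13 with only the compared libraries and 0 to 13 without 1 library. The cause was not tested.

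Uncalled genes changed sign in log2 fold change. Il18 was at 0.13 without libraries under 400000 counts, and so was Csrp1 (0.13). Clps was at 0.0095 with DESeq2 and 0.27 with the block. Without 1 library, Il18 ranged from -0.55 to 0.25, Rgs13 from -1.04 to 0.95, Bcl6 from -0.013 to 0.85 and Clps from -0.83 to 0.35. Depth was lowest in control replicate 2. In simulated counts 2-fold changes were mostly not detected, both below 30 CPM and at 30 CPM or more.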
